A study of Rattus norvegicus with 65 samples.

Results

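Transcripts of 7 choroid plexus marker genes, Ttr, Kl, Clic6, Folr1, Otx2, Slc4a5 and Aqp1, were followed in 65 rat hypothalamus RNA-seq libraries. The genes were chosen by name as markers of the choroid plexus, and each matched exactly 1 of the 38513 genes in the deposited count table. The libraries came from male Wistar rats in 8 groups that were processed in 2 experimental periods, called batch A and batch B, and the batches were kept apart in every comparison. Except for the lean animals, all groups carried diet-induced obesity. High-fat and low-fat diet were both offered to these groups, freely except in BWM animals, whose intake was restricted.

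RYGB animals had Roux-en-Y gastric bypass (11 libraries in batch A and 3 in batch B), and sham animals had a sham operation (5 and 6). BWM animals were food-restricted to match the body weight of RYGB animals (7, all in batch A). The study's abstract lists them as sham + body weight-matched. Lean animals were taken to be those fed only low-fat diet (6, all in batch A). The remaining groups received saline (3 and 5), PYY3-36 (4, all in batch B), liraglutide (5, all in batch B) or PYY3-36 + liraglutide (5 in each batch), with PYY3-36 delivered by an implanted pump and liraglutide injected under the skin every day. PYY3-36 is a gut peptide that reduces food intake, and liraglutide is an agonist of the GLP-1 receptor. Each library is taken as 1 dissected hypothalamus.

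The choroid plexus is a sheet of secretory epithelium over a vascular core that hangs in the brain ventricles and makes cerebrospinal fluid. It is not part of the hypothalamus but lies close to it in the third ventricle, and its epithelium makes several transcripts that neurons and most glia make in small amounts or not at all. Ttr encodes transthyretin, the carrier of thyroid hormone and, with retinol-binding protein, of retinol. Kl encodes klotho, a co-receptor for FGF23. Folr1 encodes the folate receptor that moves folate into the cerebrospinal fluid, Clic6 a chloride channel protein, Slc4a5 a sodium bicarbonate cotransporter and Aqp1 a water channel. Otx2 encodes a homeobox transcription factor needed for choroid plexus development.

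In the genome build of the files, Rnor_6.0, the genes lay at chr18:15532963-15542180 (Ttr, minus strand), chr12:942974-987206 (Kl, plus), chr11:32655653-32698004 (Clic6, plus), chr1:166934457-166945864 (Folr1, minus), chr15:25500037-25511619 (Otx2, minus), chr4:114918488-115002290 (Slc4a5, plus) and chr4:85551503-85563683 (Aqp1, plus). Otx2 has a near-identical copy in this annotation, LOC100911492, which starts 4120 bases beyond the end of Otx2 on the same strand. The authors' counting divided reads between genes they matched equally well. In every library the copy had between 0.923 and 1.06 times the value of Otx2, so the level of Otx2 is uncertain.

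Promoter sequence is shown for Kl and Aqp1, the members whose expression passed the test in at least 1 comparison. The 250 bases before the transcription start, 5′ to 3′, were taken from RefSeq (build GRCr8), for Kl at chr12:5325753-5326002 and for Aqp1 at chr4:85812534-85812783, both on the plus strand. Capitals mark a TATA box (TATAAA, searched on both strands), a motif chosen after the sequences had been seen.
Kl: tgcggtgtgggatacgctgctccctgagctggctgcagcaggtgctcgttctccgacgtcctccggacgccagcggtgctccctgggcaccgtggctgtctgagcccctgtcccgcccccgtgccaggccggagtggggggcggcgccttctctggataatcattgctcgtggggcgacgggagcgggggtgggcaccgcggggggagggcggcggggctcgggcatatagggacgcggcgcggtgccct
Aqp1: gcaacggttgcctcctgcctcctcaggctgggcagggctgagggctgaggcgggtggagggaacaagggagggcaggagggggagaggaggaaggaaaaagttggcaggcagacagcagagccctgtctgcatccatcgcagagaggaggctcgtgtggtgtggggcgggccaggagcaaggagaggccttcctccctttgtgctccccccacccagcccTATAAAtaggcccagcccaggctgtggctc
The Kl promoter had 73.2% G and C and the Aqp1 promoter 65.2%, against a median of 51.2% over the promoters in the table. The TATA box of Aqp1 began 30 bases before the start, and 12.9% of the 33469 promoters in the table held this motif within the same length. The OTX2 motif TAATCC, also searched on both strands, was in 6.34% of the promoters and in 0 of the 4 member promoters the table held (Ttr, Kl, Slc4a5 and Aqp1). A match is a description of the letters in this window only.

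Library totals ran from 20040821 to 36539714 counts, and the batch medians were 29571483 (A) and 23385849 (B). The label hypothalamus was checked against 16 hypothalamic marker genes, such as Avp, Oxt, Pmch and Nkx2-1. In 53 libraries they summed to 446 to 8254.5 CPM (counts per 1000000, scaled to the effective library size), and in the other 12 to 49.4 to 189 CPM. The libraries with low hypothalamic markers were BWM replicate 1, lean replicates 2 and 5, sham replicates 2, 6 and 10, saline replicates 3 and 4, liraglutide replicates 3 and 4, PYY3-36 replicate 2 and PYY3-36 + liraglutide replicate 8. None of the 14 RYGB libraries was among them. For the choroid plexus markers, comparisons are given with and without these libraries wherever leaving them out changed a call. For all other genes, fold changes without these libraries as a set are not given. Whether the calls of those genes hold without them is therefore not stated. Nothing in the bulk values distinguishes fewer choroid plexus cells in a sample from less RNA per cell, so the values below are levels in the dissected tissue.

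Ttr was the most abundant of the markers and the most variable between libraries. Its level ranged from 3.12 to 3509 CPM, with a median of 34.5 CPM, which was 0.00031% to 0.321% of a library's counts. It exceeded 100 CPM in 13 libraries, 500 CPM in 6 and 1000 CPM in 2. The highest levels were in RYGB replicate 6 and BWM replicate 2, at 3509 and 2035 CPM, so most hypothalami held little Ttr and a few held very much.

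The other markers were present at a few CPM. Kl ranged from 0.0722 to 15.4 CPM (median 1.69), Slc4a5 from 0.205 to 10.6 (2.47) and Otx2 from 0.0447 to 7.49 (1.15). Clic6 reached 24.4 CPM (median 2.87) and Folr1 25.2 (2.34). Each had 1 library at 0, sham replicate 6 for Clic6 and liraglutide replicate 3 for Folr1, where 0 counts allow a level of up to 0.164 and 0.148 CPM (3 counts, counting error only). Aqp1 ranged from 0.0728 to 198 CPM (median 3.55).

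Per kilobase of exon, the median level of Ttr was 45.5 CPM per kb. Folr1 (1.5), Aqp1 (1.35) and Clic6 (1.29 CPM per kb) were close to each other, followed by Slc4a5 (0.686), Kl (0.478) and Otx2 (0.143). Ttr was therefore far above the other markers also after length was taken into account.

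**Figure D1:**
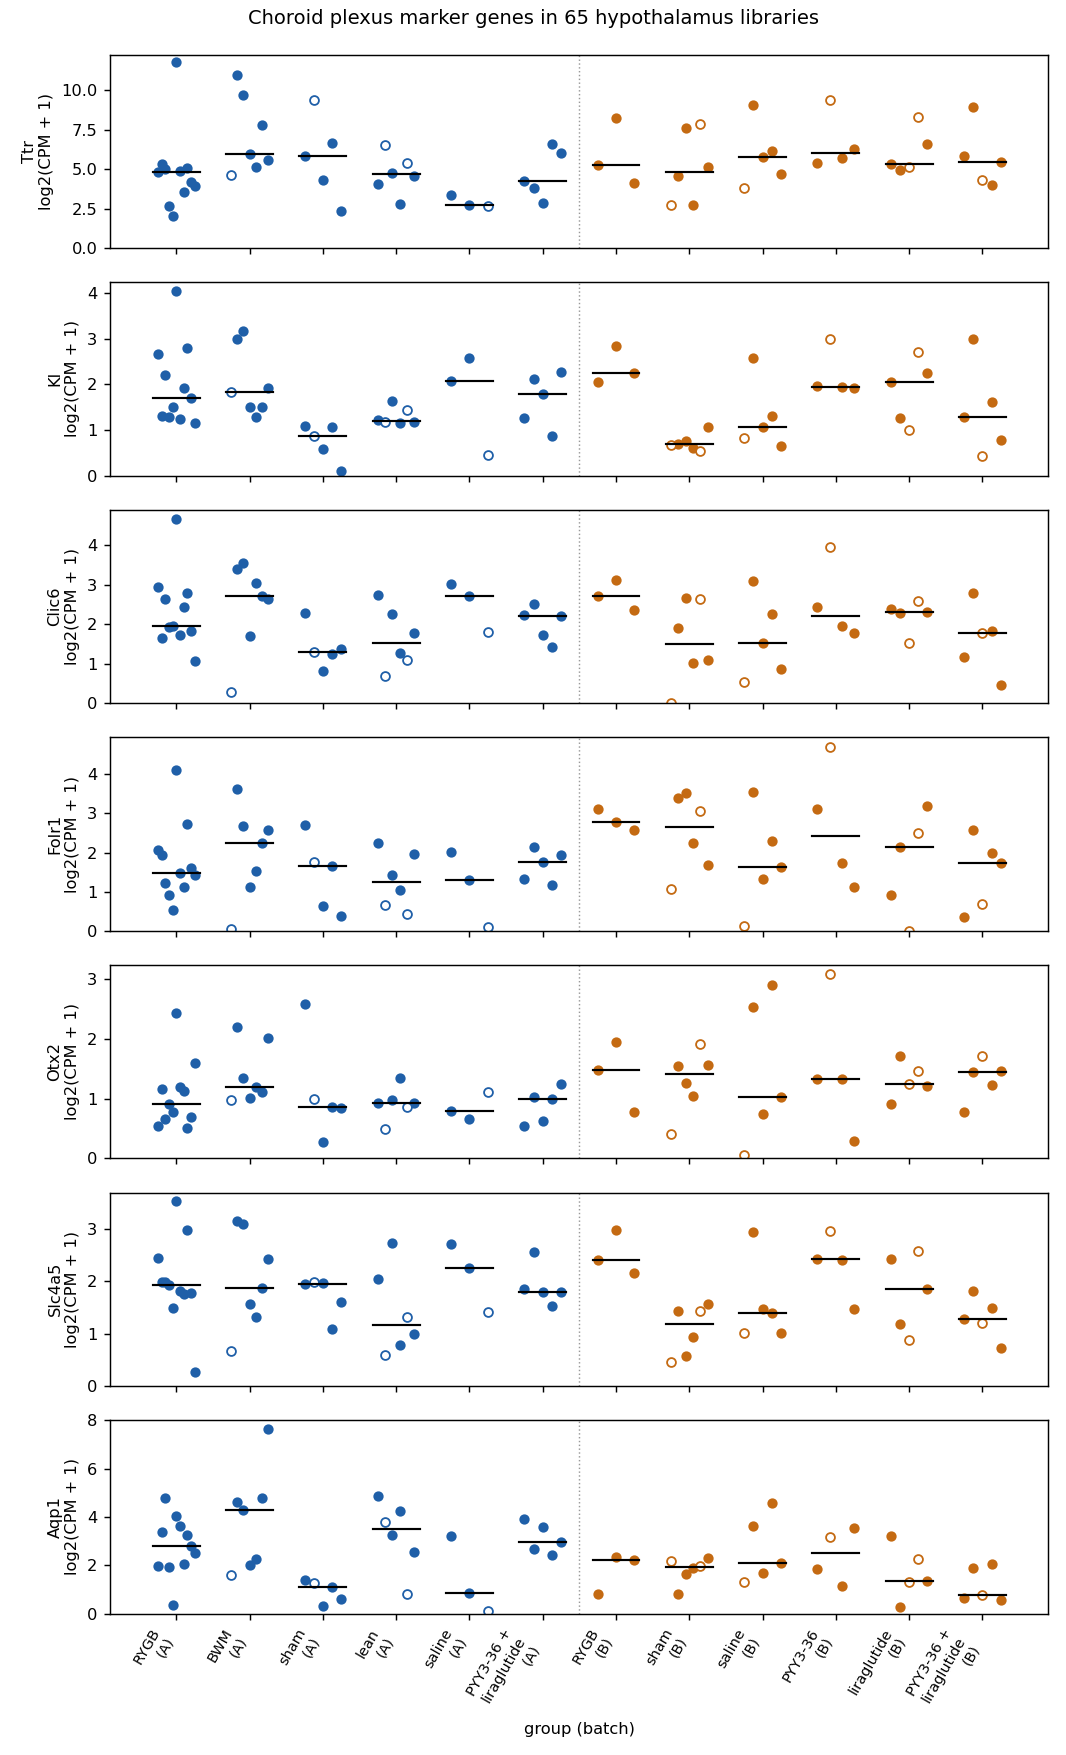
Level of each marker in each of the 65 libraries as log2(CPM + 1) on the vertical axis, by group and batch on the horizontal axis (batch A blue, batch B orange). Open circles are the 12 libraries with low hypothalamic markers and black lines are group medians. Ttr spans the widest range, RYGB replicate 6 is at the top of its group for 6 of the 7 markers, and Kl in all 11 sham libraries lies at or below 1.13 CPM.

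Animals of the same group differed strongly in these transcripts. The SD of log2(CPM + 1) within groups was 2.08 for Ttr, larger than for 99.9% of the 22207 genes tested, whose median SD was 0.26. It was 1.24 for Aqp1, 1.03 for Folr1, 0.86 for Clic6, 0.7 for Slc4a5, 0.69 for Kl and 0.63 for Otx2, the last being larger than for 93.5% of genes. All 7 markers were thus among the more variable genes at the level of single animals.

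Group and batch together accounted for 38.7% of the variance of Aqp1 and 38.4% of that of Kl, against a median of 29.7% over genes. For Slc4a5 (26.7%), Clic6 (22.9%), Ttr (20.7%), Folr1 (19.6%) and Otx2 (11.9%) the share was below that median. Most of the variance of every marker was between animals treated alike.

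RYGB replicate 6 had the highest level of its group for Ttr, Kl, Clic6, Folr1, Otx2 and Slc4a5. Relative to the median of the batch A RYGB libraries, it held 130 times as much Ttr, 9.08 times as much Folr1, 8.55 times as much Clic6, 6.87 times as much Kl, 4.96 times as much Otx2, 3.75 times as much Slc4a5 and 2.58 times as much Aqp1. In saline replicate 5 of batch B, Ttr was 9.78 times the group median and the other markers were 3.43 to 5.15 times. PYY3-36 replicate 2 likewise had 10.2 times as much Ttr and the highest level of its group for 6 of the 7 markers. The markers were high together in these libraries, with Ttr furthest.

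The markers were not high together in every library with high Ttr. Sham replicate 2 of batch A had 673 CPM of Ttr, 11.9 times its group median, while the other 6 markers were at 1.0 to 1.23 times their medians. It was one of the 12 libraries with low hypothalamic markers. Its Ttr was not accompanied by the other markers of the list. PYY3-36 + liraglutide replicate 4 had the highest Ttr of its batch A group (96.0 CPM) but the lowest Kl (0.817), Clic6 (1.67) and Slc4a5 (1.89 CPM). Lean replicate 2 had the highest Ttr of its group (90.3 CPM) but the lowest Clic6 (0.604), Otx2 (0.402) and Slc4a5 (0.503 CPM).

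Expression in RYGB and sham animals was compared to ask what bypass surgery changed. In batch A, Kl and Aqp1 were higher after RYGB, and the other 5 markers did not pass the test. Kl in the 5 sham libraries was 1.13, 0.824, 0.493, 1.1 and 0.0722 CPM, and in the 11 RYGB libraries it ranged from 1.23 through a median of 2.24 to 15.4 CPM. Every RYGB library was above every sham library, as was so for 0.279% of all genes. These levels rested on 2 to 36 counts per library in the sham group and 30 to 430 in the RYGB group.

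The fitted difference for Kl was a log2 fold change of 2.41 ± 0.64 (SE), with an adjusted p of 0.0166 by edgeR's quasi-likelihood test with Benjamini-Hochberg adjustment over 22207 genes. Without sham replicate 2 the adjusted p was 0.0543 and without sham replicate 5 it was 0.0552, while the log2 fold change was 2.45 and 2.12. Fitting only the 2 groups compared gave 2.42 with an adjusted p of 0.0896.

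Aqp1 in the same sham libraries was 1.61, 1.38, 0.246, 1.14 and 0.506 CPM. In the RYGB libraries it ranged from 0.269 through a median of 5.96 to 26.5 CPM. The groups overlapped only through RYGB replicate 5, and 10 of 11 RYGB libraries lay above the sham median. Fitted on all libraries, Aqp1 had a log2 fold change of 3.07 ± 0.96 (SE) and an adjusted p of 0.0365 by the same test.

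The call for Aqp1 was lost when RYGB replicate 2, 3, 7 or 9 or sham replicate 2, 3, 4 or 5 was left out, with log2 fold changes of 2.73 to 3.23 and adjusted p of 0.0501 to 0.094. Without the libraries of low hypothalamic markers it was 3.24 with an adjusted p of 0.0671, while Kl kept its call (2.46, adjusted p 0.0392). Aqp1 had 3.12 (adjusted p 0.073) when only the 2 groups were fitted and 1.68 (adjusted p 0.144) in an additive model of group and batch. The 2 members called, of 7, compare with 3.06% of all genes tested, where 565 genes were higher and 115 lower.

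Among the markers that did not pass, Clic6 ranged from 1.11 to 24.4 CPM after RYGB and from 0.774 to 3.87 CPM after sham, a log2 fold change of 1.6 ± 0.69 (SE, adjusted p 0.129). The values were 0.63 ± 0.83 for Folr1, 0.61 ± 0.54 for Slc4a5 and -0.32 ± 0.58 for Otx2 (adjusted p 0.676, 0.508 and 0.773). The members' median log2 fold change was 0.99, against -0.02 for all genes tested.

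Ttr in batch A depended on single libraries with very high levels. The sham libraries held 56.4, 673, 19.1, 101 and 4.08 CPM and the RYGB libraries 3.12 to 3509 CPM with a median of 27.0, so the groups overlapped widely. With all libraries the log2 fold change was 0.99 ± 1.27 (SE, adjusted p 0.671). Without RYGB replicate 6 it was -3.03 ± 0.96 (SE), with an adjusted p of 0.029 that would call Ttr lower after RYGB. The direction for Ttr therefore turned when RYGB replicate 6 was left out. Sham replicate 2 held the 673 CPM, and a fit without both of these libraries was not run.

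The same comparison in batch B, with 3 RYGB and 6 sham libraries, again gave a higher level of Kl and of no other marker. Kl was 3.16, 6.12 and 3.72 CPM in the RYGB libraries and ranged from 0.462 through a median of 0.607 to 1.1 CPM in the sham libraries. Every RYGB library was above every sham library, as was so for 7.78% of all genes. Sham counts were 9 to 23 and RYGB counts 81 to 162.

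The log2 fold change of Kl was 2.7 ± 0.72 (SE), with an adjusted p of 0.0337 by edgeR's quasi-likelihood test. This was 1 member of 7, against 1.55% of all genes called. The call depended on nearly every library: leaving out RYGB replicate 12, 13 or 14 or sham replicate 6, 8, 9, 10 or 11 gave log2 fold changes of 2.37 to 2.9 and adjusted p of 0.0537 to 0.228. Without the libraries of low hypothalamic markers it was 2.56 with an adjusted p of 0.152. The difference between the batches in the RYGB effect on Kl was 0.29 ± 0.94 (SE, log2, adjusted p 0.948).

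Slc4a5 in batch B was 4.29, 6.88 and 3.46 CPM after RYGB and 0.382 to 1.97 CPM (median 1.3) after sham. These groups did not overlap either, as was so in this direction for 7.78% of all genes. Its log2 fold change was 2.02 ± 0.68 (SE) with an adjusted p of 0.0735, past the threshold only when the 2 groups were fitted alone (adjusted p 0.0379) or by DESeq2's Wald test (0.0449). In batch A the corresponding value was 0.61.

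Aqp1 in batch B was 0.742, 4.12 and 3.61 CPM after RYGB and 0.745 to 3.98 CPM (median 2.81) after sham. This was a log2 fold change of 0.08 ± 1.07 (SE, adjusted p 0.978). Compared with batch A, the effect was lower by 2.99 ± 1.46 (SE, log2), which did not pass adjustment (p = 0.0452, adjusted p 0.47 by edgeR). Whether the effect on Aqp1 differed between the batches was not resolved.

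Weight-matched animals were compared with sham to ask what weight loss without bypass changed. This comparison uses the same 5 sham libraries as RYGB against sham in batch A, so the values are given side by side and are not independent. Kl and Aqp1 were again higher, and the other 5 markers did not pass the test. Kl ranged from 1.43 through a median of 2.53 to 7.96 CPM in BWM libraries, all above the sham libraries. The log2 fold change was 2.31 ± 0.66 (SE, adjusted p 0.0285), beside 2.41 for RYGB.

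Leaving out any of 5 libraries, BWM replicates 3 and 7 and sham replicates 2, 3 and 5, lost the call for Kl (2.0 to 2.39, adjusted p 0.0562 to 0.077). With the replicate number as a block it was 2.21 with an adjusted p of 0.0657. Both members called compare with 3.02% of all genes, and non-overlap in this direction with 0.428%.

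Aqp1 showed the largest difference of any marker. The BWM libraries held 2.04, 23.4, 18.6, 3.02, 3.73, 26.3 and 198 CPM, the last in replicate 7, and all were above the sham range of 0.246 to 1.61 CPM. The log2 fold change was 5.32 ± 1.1 (SE), with an adjusted p of 0.00522, beside 3.07 for RYGB. It stayed past the threshold without any single library, with a lowest log2 fold change of 3.72, and without the libraries of low hypothalamic markers (5.72, adjusted p 0.00945). When only the 2 groups were fitted it was 5.37 with an adjusted p of 0.174.

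Clic6 in BWM animals ranged from 0.227 to 10.7 CPM, with a log2 fold change of 1.68 ± 0.73 (SE, adjusted p 0.171). Ttr had 1.44 ± 1.38, Folr1 0.89 ± 0.89, Slc4a5 0.67 ± 0.58 and Otx2 0.21 ± 0.63. The members' median log2 fold change was 1.44, against 0.0 for all genes tested.

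**Figure D2:**
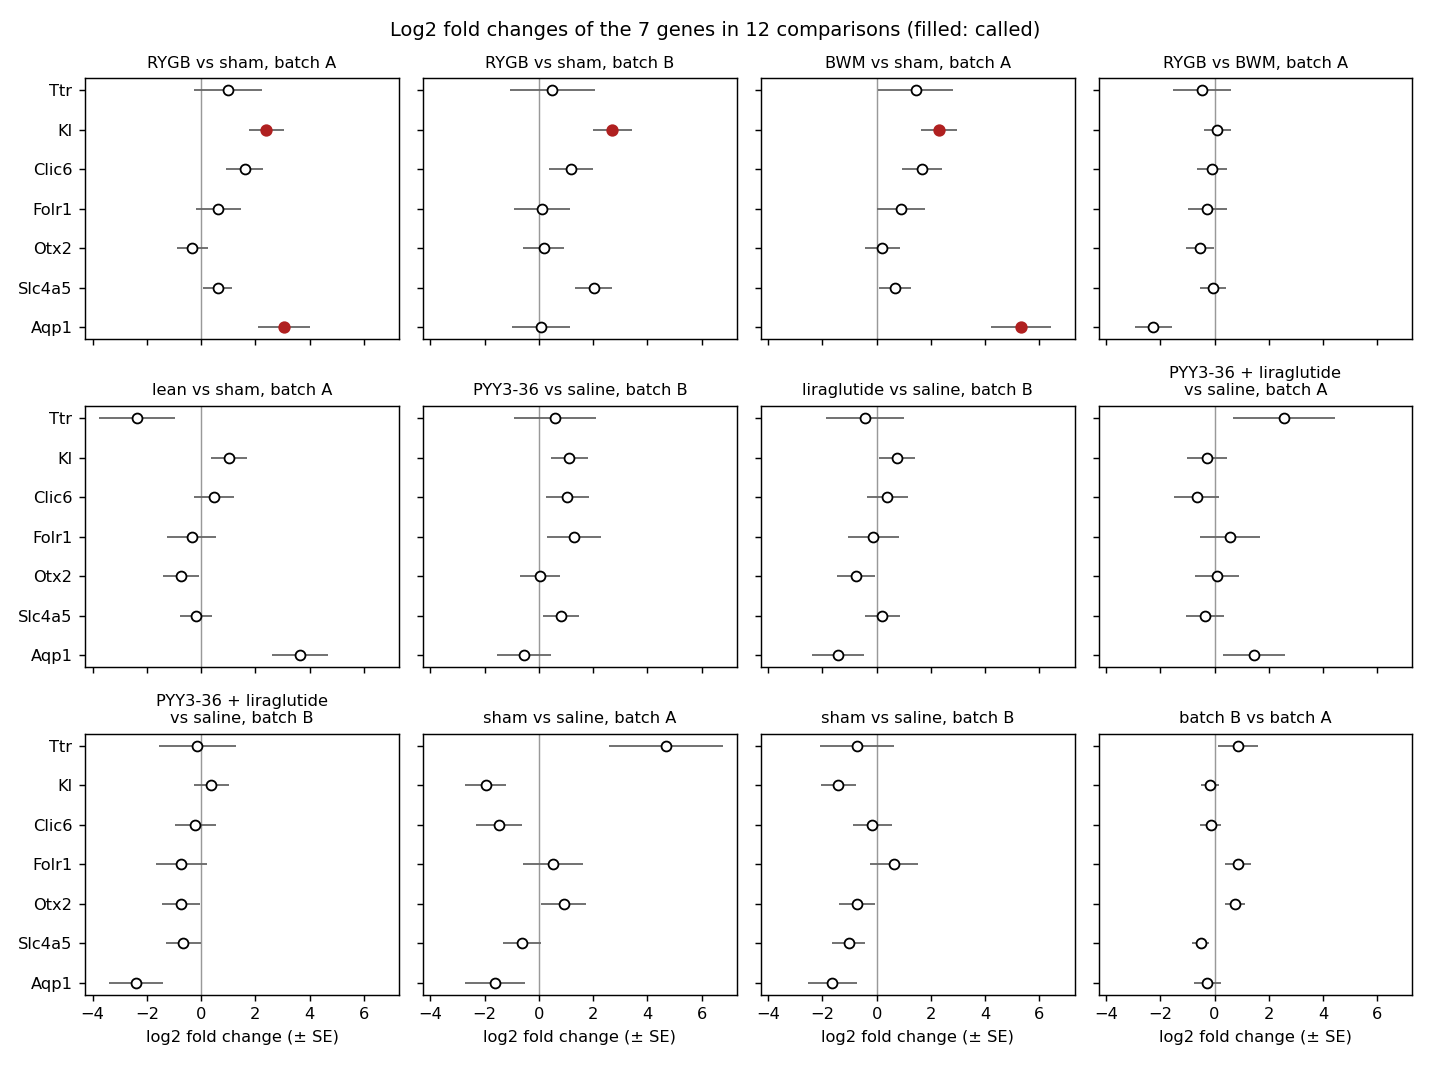
Log2 fold change of each marker with its standard error in each of 12 comparisons, 1 panel per comparison, from edgeR's quasi-likelihood fit. Filled red points are called (adjusted p under 0.05 and log2 fold change over 1 either way). The called points are Kl and Aqp1 for RYGB against sham in batch A, Kl in batch B, and Kl and Aqp1 for BWM against sham.

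RYGB and BWM animals were also compared directly. The paper states that BWM animals weighed more than RYGB animals when observation ended, so this comparison did not hold weight equal. None of the 7 markers was called by edgeR, against 0.167% of genes, and DESeq2's Wald test likewise called 0. Aqp1 was the 1 marker with an unadjusted p under 0.05, at a log2 fold change of -2.25 ± 0.69 (SE, adjusted p 0.298). Kl differed by 0.1 ± 0.49 (SE), a span that holds differences of either sign. Ttr had a log2 fold change of -0.46 ± 1.08 (SE) with all libraries. Without RYGB replicate 6 it was -4.47 ± 0.96 (SE, adjusted p 0.0226 by edgeR) and would be called lower after RYGB. Without BWM replicate 2 it turned to 0.68 ± 1.15 (SE, adjusted p 0.968 by edgeR).

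Lean animals were compared with sham, again against the same 5 sham libraries. None of the 7 markers was called by edgeR, against 0.0766% of genes, and 1 had an unadjusted p under 0.05. This was Aqp1, which was 28.4, 12.8, 8.44, 18.2, 0.749 and 4.83 CPM in the lean libraries, with a log2 fold change of 3.64 ± 1.03 (SE, adjusted p 0.0933). It passed by DESeq2's Wald test (adjusted p 0.0109) and without lean replicate 6 (adjusted p 0.0383). All lean libraries except replicate 5 lay above the sham libraries.

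Kl in lean animals ranged from 1.23 through 1.29 to 2.12 CPM, above all 5 sham libraries of batch A, while 0.603% of genes did not overlap in this direction. Its log2 fold change was 1.02 ± 0.66 (SE, adjusted p 0.463). The lowest Kl outside the sham group in batch A was in saline replicate 3, at 0.364 CPM.

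Kl was low in every sham library of both batches. The highest of the 11 sham levels was 1.13 CPM, and 8 of the 54 other libraries (14.8%) lay at or below it. These were 4 of 8 saline, 1 of 5 liraglutide and 3 of 10 PYY3-36 + liraglutide libraries. None of the RYGB, BWM, lean or PYY3-36 libraries did. This count was made after the values had been seen and has no test.

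The sham group was therefore also set against saline, the other control. None of the 7 markers was called by edgeR in either batch, nor by DESeq2's Wald test, against 0.0% of genes in batch A and 0.0225% in batch B. In batch A the saline libraries held 3.23, 4.93 and 0.364 CPM of Kl, and sham was lower by a log2 fold change of -1.96 ± 0.75 (SE, p = 0.0114, adjusted p 0.246 by edgeR). In batch B saline held 0.76, 4.94, 1.1, 1.47 and 0.565 CPM, with -1.41 ± 0.66 (SE, p = 0.0383, adjusted p 0.498 by edgeR). The ranges overlapped in both batches.

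Ttr differed between sham and saline in batch A by 4.67 ± 2.1 (SE, log2, p = 0.0301, adjusted p 0.306 by edgeR). The 3 saline libraries held 9.07, 5.71 and 5.35 CPM, the lowest median of any group. In batch B the log2 fold change was -0.74 ± 1.36 (SE), and the difference between batches was -5.41 ± 2.43 (SE, p = 0.03, adjusted p 0.394 by edgeR).

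The hormone treatments were compared with saline, and the 3 comparisons in batch B share the same 5 saline libraries. None of the 7 markers was called by edgeR or by DESeq2's Wald test in any of the 4 comparisons, where few genes were called at all: 0.0045% for PYY3-36, 0.00901% for liraglutide, and 0.0% and 0.0135% for the combination in batch A and batch B. Of the 28 values, 1 had an unadjusted p under 0.05, Aqp1 for the combination in batch B. There Aqp1 was 0.58, 2.75, 0.698, 3.17 and 0.471 CPM, against 1.48, 11.3, 2.24, 23.1 and 3.29 CPM with saline. The log2 fold change was -2.4 ± 1.0 (SE, p = 0.0194, adjusted p 0.811 by edgeR).

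In batch A the combination held 14.2, 5.42, 10.9, 4.31 and 6.91 CPM of Aqp1 and saline 8.15, 0.806 and 0.0728 CPM, a log2 fold change of 1.46 ± 1.14 (SE). The difference between batches was -3.87 ± 1.54 (SE, p = 0.0148, adjusted p 1.0 by edgeR). With PYY3-36 the largest difference was that of Folr1, at 1.3 ± 0.99 (SE, adjusted p 0.609), and with liraglutide that of Aqp1, at -1.43 ± 0.96 (SE, adjusted p 1.0). Over all markers the difference of an effect between batches was tested 21 times, and edgeR gave 0 with an adjusted p under 0.05 (3 with an unadjusted p under 0.05).

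Batch B was set against batch A over the 4 groups present in both, 43 libraries in all. None of the 7 markers was called, against 5.77% of genes, and 1 had an unadjusted p under 0.05. This was Otx2, higher in batch B by 0.75 ± 0.36 (SE, log2, adjusted p 0.0885), and called at 1.04 without sham replicate 1 (adjusted p 0.0143). Ttr was higher by 0.87 ± 0.75 (SE), and called at 1.87 ± 0.62 (adjusted p 0.0128) without RYGB replicate 6.

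The remaining genes of the choroid plexus and its functions were taken from lists. Of 27 other genes of the choroid plexus epithelium, 6 were higher after RYGB in batch A, 6 in BWM and 1 after RYGB in batch B, with 0 lower in each. Of all genes tested, 3.06%, 3.02% and 1.55% were called in the same order. After RYGB in batch A the called genes of the list included Igf2, a growth factor (log2 fold change 3.49 ± 0.78 SE, adjusted p 0.00705), and Slc13a4, a sulfate transporter (3.41 ± 0.85, adjusted p 0.0124). In BWM they included Igf2 (4.05 ± 0.83, adjusted p 0.00519), Igfbp2, an IGF-binding protein (3.29 ± 0.78, adjusted p 0.0109), and Slc13a4 (3.68 ± 0.89, adjusted p 0.0111), of which Igfbp2 and Slc13a4 lost the call without BWM replicate 7 (adjusted p 0.0502 and 0.0557). In batch B the called gene was Ace, angiotensin-converting enzyme (1.29 ± 0.33, adjusted p 0.0277), a call lost without RYGB replicate 12 or 13 or sham replicate 6, 9 or 11 (adjusted p 0.0503 to 0.228). The list's median log2 fold change was 0.98, 1.42 and 0.13 in the same order, against -0.02, 0.0 and -0.02 for all genes. Igf2, Igfbp2 and Slc13a4 are also made in the meninges.

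These counts depended on the fit and on single libraries. With only the 2 groups fitted, edgeR called 0 of the list after RYGB in batch A and 0 in BWM (9 and 11 with an unadjusted p under 0.05), and Igf2 and Slc13a4 after RYGB had 3.55 and 3.46 (adjusted p 0.0637 and 0.0654). In the additive model of group and batch the counts were 4 and 0 (9 and 14 with an unadjusted p under 0.05), and both genes lost the call there after RYGB (Igf2 1.13, adjusted p 0.333, and Slc13a4 1.36, adjusted p 0.254). After RYGB in batch A the count fell to 3 when either RYGB replicate 3 or sham replicate 2 was left out and to 2 when sham replicate 5 was, and in BWM to 1 when BWM replicate 7 was.

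Of 12 genes of cerebrospinal fluid ion and water transport, 0 were called by edgeR in these 3 comparisons (5, 4 and 3 had an unadjusted p under 0.05 for RYGB in batch A, BWM and RYGB in batch B, and DESeq2's Wald test called 0, 0 and 1). The list was led in level by Atp1b1, a sodium pump subunit, and Aqp4, the astrocyte water channel, which are expressed throughout the brain (mean 1646 and 759 CPM). Of 9 genes tested from the list of retinol, thyroid hormone and folate carriage and klotho signalling, Rbp4, the plasma retinol carrier, was higher after RYGB in batch A (1.55 ± 0.48, adjusted p 0.0365) and in BWM (1.71 ± 0.51, adjusted p 0.0384). Crabp2, a retinoic acid binding protein, was higher after RYGB in batch A (1.43 ± 0.47, adjusted p 0.0441). Neither gene kept its call without sham replicate 1, 2 or 3 (adjusted p 0.0689 to 0.148), and several RYGB, BWM and other sham libraries had the same effect when left out. After RYGB in batch B both genes had negative values and neither was called. These were -1.23 ± 0.62 for Rbp4 and -1.17 ± 0.61 for Crabp2 (SE, adjusted p 0.24 and 0.254 by edgeR).

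Markers of other tissues around the ventricle moved in the same comparisons, where 3.06% (RYGB in batch A) and 3.02% (BWM) of all genes were called. All 11 rows of the meninges list (10 genes, Ogn being listed at 2 positions) were higher after RYGB in batch A and in BWM, with median log2 fold changes of 3.48 and 3.72. They included the fibrillar collagen Col3a1 (4.07 ± 0.96 after RYGB, 4.65 ± 1.01 in BWM). Without sham replicate 2 edgeR called 3 and 4 of the 11, and in BWM without replicate 7 it called 5. It called 0 in both comparisons when only the 2 groups were fitted (11 and 11 with an unadjusted p under 0.05, medians 3.54 and 3.76), and 0 in both in the additive model (1 and 9, medians 1.37 and 1.85). Their summed level was 39.8 to 88.9 CPM in the 5 sham libraries of batch A, 61.3 to 2270 CPM in RYGB and 51.8 to 2438 CPM in BWM. In batch B edgeR and DESeq2's Wald test both called 0 after RYGB (0 with an unadjusted p under 0.05), at a median log2 fold change of -0.82, and the sums were 92.9 to 148 CPM in RYGB and 56.1 to 590 CPM in sham. In lean against sham the median was 2.88, with 11 rows at an unadjusted p under 0.05. There edgeR called 0 and DESeq2's Wald test 8. In sham against saline in batch A the median was -1.71, with 4 rows at an unadjusted p under 0.05 and 0 called by either test. Meningeal markers were thus low in the batch A sham libraries, the same libraries against which Kl and Aqp1 were higher, and their part in these differences was not tested.

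The other lists had fewer calls. Of 10 ependymal genes 0 were called by edgeR in the 3 comparisons, at median log2 fold changes of -0.49, -0.13 and -0.48 for RYGB in batch A, RYGB in batch B and BWM (1, 0 and 2 had an unadjusted p under 0.05, and DESeq2's Wald test called 0, 0 and 1). Of 8 tanycyte genes, Adm, adrenomedullin, was higher after RYGB in batch A (1.47 ± 0.44, adjusted p 0.0306) and in BWM (1.56 ± 0.47, adjusted p 0.0383), both calls being lost without sham replicate 2, 3 or 5, among other libraries (adjusted p 0.0525 to 0.116 without these). Of 6 endothelial genes, Cdh5, VE-cadherin, was higher in the same comparisons (1.47 ± 0.39 and 1.73 ± 0.41, adjusted p 0.0163 and 0.0109), and lost both calls without sham replicate 2 (0.0673 and 0.0502) and the second without BWM replicate 7 (0.0777).

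Of 10 habenula and thalamus genes, 3 were lower after RYGB in batch A: Prkcd, a protein kinase C (-2.01 ± 0.56), Tcf7l2, a Wnt effector (-1.5 ± 0.46), and Gbx2, a homeobox factor (-2.47 ± 0.77). Of 6 pineal genes tested, Tph1, a tryptophan hydroxylase, was lower (-2.46 ± 0.76). These rested on sham replicate 1, which had the highest Otx2, Kl, Clic6, Folr1 and Aqp1 of its group. Without it the log2 fold changes were 0.96 for Prkcd, 0.33 for Tcf7l2, -0.36 for Gbx2 and 0.06 for Tph1, with adjusted p of 0.224, 0.673, 0.822 and 0.976, and that of Otx2 was 0.84 in place of -0.32. After RYGB in batch B the habenula and thalamus list had a median log2 fold change of 0.79. There 9 of 10 genes were above 0, and edgeR called 0 (1 with an unadjusted p under 0.05).

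Of 9 anterior pituitary genes, 5 were higher in BWM, with growth hormone Gh1 at 9.73 ± 2.46 and the pituitary transcription factor Pou1f1 at 9.33 ± 1.76. BWM replicate 5 held 76791 CPM of the pituitary list, and without it the values were 3.0 (adjusted p 0.373) and 3.15 (adjusted p 0.171), while Gh1 also lost its call without sham replicate 2 (adjusted p 0.0532). In BWM replicate 5 Kl was 1.43 CPM, the lowest of its group, and Aqp1 3.73 CPM. Of 4 blood genes tested edgeR called 0 in each of the 3 comparisons (2, 0 and 2 with an unadjusted p under 0.05 for RYGB in batch A, RYGB in batch B and BWM, and DESeq2's Wald test called 0, 0 and 2), and of the 16 hypothalamic markers likewise 0 (1, 0 and 0, and 0 by DESeq2). When only the 2 groups were fitted, the calls given above for Rbp4, Crabp2, Adm, Cdh5, Prkcd, Tcf7l2, Gbx2, Tph1 and Gh1 were lost as well (adjusted p 0.0877 to 0.374).

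Covariation of the markers between animals was examined on the residuals of log2(CPM + 1) from the 12 combinations of group and batch, so that differences between groups did not enter. Pearson's r was between 0.3 and 0.8 and Spearman's rho between 0.2 and 0.76 over the 21 pairs of markers (65 libraries). By a two-sided permutation test within groups with 100000 resamples, adjusted p was under 0.05 for 21 pairs by r and 19 by rho. The exceptions by rho were Kl with Otx2 (adjusted p 0.119) and Otx2 with Aqp1 (0.0728). Points share the depth and scaling of their library.

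The closest pair was Clic6 and Folr1, with r = 0.8 and rho = 0.76 (0.81 within batch A and 0.79 within batch B, and 0.75 without the 2 libraries farthest from the median). The permutation p for both was 1e-05, the smallest these permutations can give (adjusted p 2.33e-05 for r and 3.5e-05 for rho). Clic6 with Slc4a5 had r = 0.76 and Kl with Slc4a5 r = 0.73. The 10 pairs among Ttr, Kl, Clic6, Folr1 and Slc4a5 had r of 0.53 to 0.8, and all passed within batch A and within batch B alone. These 5 markers formed the part of the list that varied together most closely.

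Aqp1 was the least tied to the rest, with r of 0.3 to 0.42 in its 6 pairs, of which 3 passed within batch A and 1 within batch B. Otx2 had r of 0.3 to 0.64. Without the 2 farthest libraries, r over all pairs was 0.23 to 0.75 and 20 pairs passed, Kl with Otx2 failing. Without the libraries of low hypothalamic markers it was 0.29 to 0.76 and 19 passed.

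**Figure D3:**
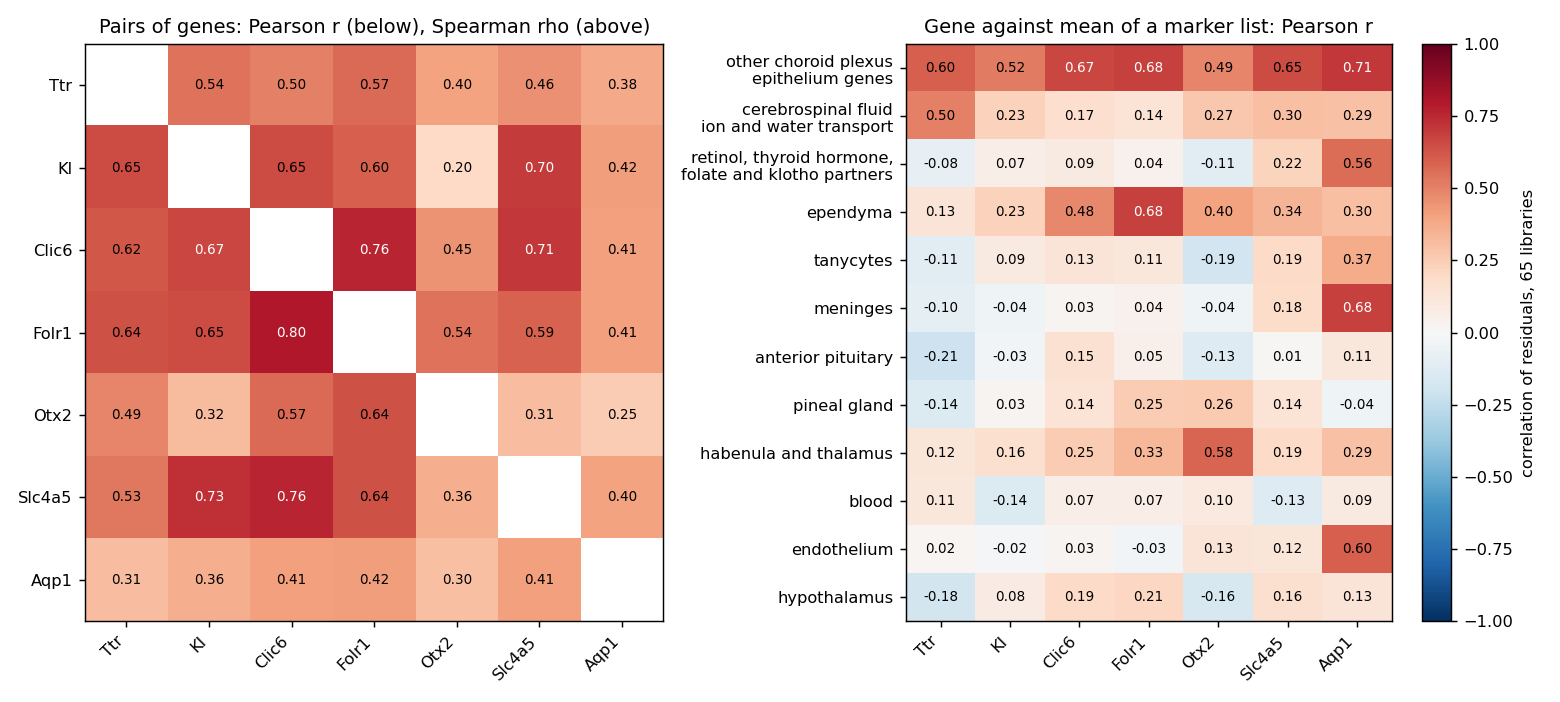
Correlation between residuals of log2(CPM + 1) from the group and batch means over 65 libraries. Left, pairs of markers, with Pearson's r below the diagonal and Spearman's rho above it; right, Pearson's r of each marker with the mean of each marker gene list. The pairs among Ttr, Kl, Clic6, Folr1 and Slc4a5 reach 0.53 to 0.8, whereas Aqp1 stays at 0.3 to 0.42 with other markers and reaches 0.68 with the meninges list.

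The markers were also set against the mean of each of 12 lists, 84 relations in all. All 7 followed the other choroid plexus epithelium genes, with r of 0.49 to 0.71. Aqp1 also followed the meninges list, with r = 0.68 and rho = 0.61 (0.73 within batch A, 0.55 within batch B and 0.62 without the 2 farthest libraries, permutation adjusted p 0.00012 for r and 0.00036 for rho). The other 6 markers had r of -0.1 to 0.18 with that list, and Kl had -0.04; the difference between these correlations was not tested. Aqp1 likewise followed the endothelial list, with r = 0.6 and rho = 0.44 (permutation adjusted p 0.000653 and 0.0127). As background, Aqp1 is also found in the endothelium of many organs outside the brain.

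Folr1 followed the ependymal list, with r = 0.68 and rho = 0.72 (0.55 within batch A and 0.8 within batch B, permutation adjusted p 0.00012 for r and 0.00014 for rho). Otx2 followed the habenula and thalamus list, with r = 0.58 and rho = 0.46 (permutation adjusted p 0.0263 and 0.0127). Sham replicate 1 held 4.98 CPM of Otx2, with the next library of its group at 0.989. The correlation without it is not given. Ttr had r = 0.5 with the ion and water transport list, but rho = 0.29, with adjusted p of 0.00304 and 0.141 by permutation. The markers thus shared a common part and each of Aqp1, Folr1 and Otx2 had a further list that it followed.

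**Figure D4:**
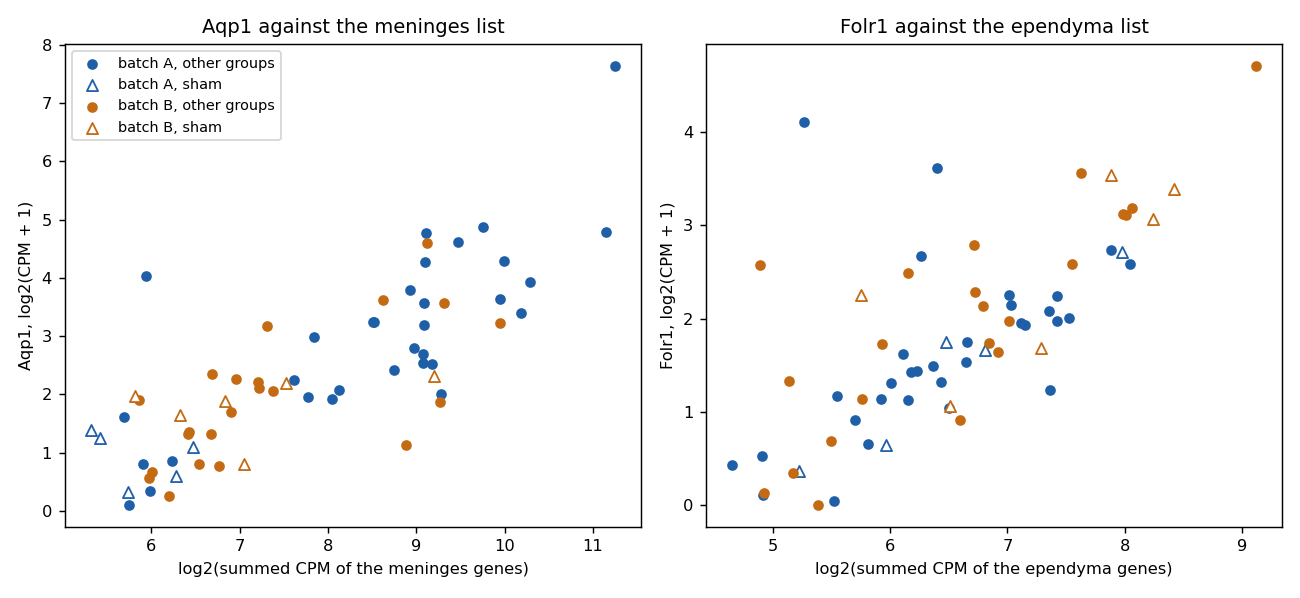
Aqp1 against the summed meninges list (left) and Folr1 against the summed ependyma list (right), in CPM on log axes, 1 point per library. Triangles are sham libraries, blue is batch A and orange is batch B. The 5 sham libraries of batch A lie at the low end of both Aqp1 (0.246 to 1.61 CPM) and the meninges sum (39.8 to 88.9 CPM).

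The genes whose residuals were most like the mean of the 7 markers over 65 libraries were Cldn2, a tight junction claudin (r = 0.84), Slco1a5, an organic anion transporter (0.82), F5, coagulation factor V (0.81), Prr32 (0.75), Sostdc1, a BMP and Wnt antagonist (0.75), Pla2g5, a secreted phospholipase (0.73), Msx1, a homeobox factor (0.72), and Tmem27 (0.72). They were followed by 2 non-coding RNAs, LOC108350049 and LOC103695197, both at 0.7. Of these 10 genes, 5 were on the list of other choroid plexus epithelium genes, which holds 27 of the 22207 genes tested. That list was chosen with earlier results of these data known, so it is no independent check of the label. These values are descriptions over genes and libraries and carry no test.

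Single markers had different neighbours, chosen here after their values were seen. Ttr was closest to Prr32 (r = 0.86) and Slco1a5 (0.86), and Kl to Slco1a5 (0.73) and Cldn2 (0.73). Folr1 was closest to Cfap126, a gene of motile cilia (0.8). Aqp1 was closest to Tfap2b, transcription factor AP-2 beta (0.84), and to the potassium channel Kcnj13 (0.82). Otx2, apart from its copy, was closest to Prkcd (0.63), one of the habenula and thalamus genes.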

How the data were processed

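Hypothalamic RNA of 65 rats was sequenced by the authors as stranded poly-A libraries. Per the labels and the study's methods, reads were trimmed with cutadapt (1.16 in the submitters' processing notes, with later versions also named in the methods), aligned to Rnor_6.0 with STAR 2.7.2b and counted per gene on a RefSeq annotation with featureCounts 1.6.4. The authors deposited estimated counts, in which reads matching several genes enter as fractions; 30.3% of nonzero values were not whole (tolerance 1e-06), which bears on Otx2. One PYY3-36 animal was excluded by the authors for an extraction error. Each library is taken as 1 animal.

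Here counts were rounded, which changed a library total by at most 0.001%, and genes were kept by edgeR's filterByExpr (minimum count 10, total 15), leaving 22207 genes, all 7 members among them. The 12 combinations of group and batch were fitted together with TMM scaling by edgeR 4.0.16 (R 4.3.3) and its robust quasi-likelihood test, and p-values were adjusted by Benjamini-Hochberg over all genes. A gene was called at an adjusted p under 0.05 and a log2 fold change over 1 either way. No 2 libraries held identical values. Levels are CPM on TMM-scaled library sizes, and spread and correlations used log2(CPM + 1). Permutations were run with numpy 2.4.6 and scipy 1.17.1. Scripts were tested on simulated data.

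Values are given for all 7 members. Of other genes, the 10 nearest to the members and, from each list, up to 4 genes with the smallest adjusted p in a comparison that called any (otherwise the 2 most abundant) were eligible. The members and gene lists were chosen with earlier results of these data known. Alternatives were DESeq2 1.42.0 (Wald test and size factors), no filter, an additive model of group and batch, the compared groups alone, a replicate block, a pseudocount of 0.5, no fold threshold, leaving out each library and, chosen after seeing the data, leaving out the 12 libraries with hypothalamic markers under 200 CPM. Promoters came from RefSeq (GRCr8). Clic6, Folr1 and Otx2 promoters were not used here.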

Additional observations from a re-analysis of the deposited data

Results flagged for a closer look

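Dixon's gap test on CPM was applied to 63 combinations of marker and group with 4 to 10 libraries. The highest or lowest library stood apart from the rest of its group in 16 of them. About 1 in 20, or 3.15, would be flagged if CPM were normally distributed within groups. All 16 were the highest library of the group, and 2 stood apart also on the log2 scale. CPM were skewed to high values (Ttr mean 181, median 34.5 CPM), so 3.15 is not the number due to chance here.

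Ttr was high in BWM replicate 2 (2035 CPM, next 828), sham replicate 2 in batch A (673, next 101), saline replicate 5 (528, next 71.6), PYY3-36 replicate 2 (659, next 78.0), liraglutide replicate 4 (314, next 94.9) and PYY3-36 + liraglutide replicate 7 (494, next 56.1). Kl was high in sham replicate 11 (1.1 CPM, next 0.679), saline replicate 5 (4.94, next 1.47), PYY3-36 replicate 2 (6.93, next 2.87, also on the log2 scale) and PYY3-36 + liraglutide replicate 7 (6.97, next 2.04).

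Clic6 was high in sham replicate 1 (3.87 CPM, next 1.59) and PYY3-36 replicate 2 (14.4, next 4.45), and Otx2 in sham replicate 1 (4.98, next 0.989). Slc4a5 was high in PYY3-36 + liraglutide replicate 2 (4.89, next 2.61) and saline replicate 5 (6.74, next 1.78, also on the log2 scale). Aqp1 was high in BWM replicate 7 (198 CPM, next 26.3). The RYGB group of batch A, with 11 libraries, was too large for this test and holds the highest Ttr of all. Saline replicate 5 and PYY3-36 replicate 2 were flagged for 3 markers each. PYY3-36 replicate 2, liraglutide replicate 4 and sham replicate 2 are also among the libraries with low hypothalamic markers; what sets these libraries apart was not tested.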

How the results depend on the processing

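The number of members called was 2 for RYGB against sham in batch A, 1 in batch B and 2 for BWM against sham. In batch A it was 1 with no filter on low counts (Kl), 1 in the additive model of group and batch (Kl), 1 without the libraries of low hypothalamic markers and 0 when only the compared groups were fitted; leaving out 1 library gave 0 to 3. In batch B it was 2 when only the compared groups were fitted, 2 by DESeq2's Wald test (Kl and Slc4a5), 0 without the libraries of low hypothalamic markers, and 0 to 1 with 1 library left out. For BWM against sham it was 1 with the replicate block (Aqp1), 0 when only the compared groups were fitted, and 1 to 2 with 1 library left out. For lean against sham it was 0, and 1 by DESeq2's Wald test (Aqp1); leaving out 1 library gave 0 to 1 there, for RYGB against BWM and for batch B against batch A. Causes were not tested. The fits on the compared groups held fewer libraries. DESeq2 size factors and no fold threshold changed none of these counts.

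Directions turned for Folr1 (-0.07, RYGB against sham in batch B, without the libraries of low hypothalamic markers), Otx2 in the same comparison (-0.04, additive model) and Otx2 in BWM (-0.09, replicate block); none of these was called. With 1 library left out, the log2 fold change for RYGB against sham in batch A ranged from -3.03 to 2.9 for Ttr, -0.05 to 1.34 for Folr1 and -0.74 to 0.84 for Otx2. In batch B it ranged from -1.63 to 1.17 for Ttr, -0.12 to 0.36 for Folr1, -0.33 to 0.54 for Otx2 and -0.29 to 0.52 for Aqp1. It ranged from -0.07 to 1.37 for Otx2 in BWM and from -4.47 to 0.68 for Ttr in RYGB against BWM. Of genes on other lists, RYGB against sham in batch A ranged from -2.3 to 0.96 for Prkcd, -1.78 to 0.33 for Tcf7l2, -1.03 to 0.06 for Lef1 and -2.76 to 0.06 for Tph1, each highest without sham replicate 1, and BWM against sham from -1.5 to 0.38 for Crym.

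With a pseudocount of 0.5 the within-group SD was 0.82 for Kl, 1.02 for Clic6, 1.24 for Folr1, 0.8 for Otx2, 0.83 for Slc4a5 and 1.39 for Aqp1, and 2.11 for Ttr. With the replicate block, Kl for RYGB against sham in batch A was 2.56 (adjusted p 0.0167) and Aqp1 2.95 (0.0403), and Kl in BWM was 2.21 (0.0657); the block could not be fitted for RYGB against sham in batch B, where the groups share no numbers. Of the comparisons with 3 or more pairs, same-numbered libraries correlated above 0.1 in every pair for PYY3-36 + liraglutide against saline in batch A (0.11 to 0.35, 3 pairs). With fewer pairs they did so for liraglutide (0.34 and 0.38, 2 pairs) and PYY3-36 (0.12, 1 pair) against saline in batch B. No marker was called in these 3 comparisons with or without the block. Kl and Otx2 rested on median counts of 50 and 31 per library, and their biological coefficients of variation, the spread between libraries beyond counting error, were 0.69 and 0.72.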
